A study of Homo sapiens with 3 samples.

Results

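The genes described here are 33 nuclear pore complex genes, taken from a given list of nucleoporins and their paralogues, of 20033 protein-coding genes in the annotation. For each gene, the ZBTB11 peak with the smallest p-value within 3 kb of any annotated transcript start was taken and is called its strongest peak. To learn where ZBTB11, a zinc finger protein, sits on chromatin, the study used ChIP-seq, which sequences the DNA pulled down with a protein. The cells were of the human lung cancer line NCI-H1299, which the study describes as p53-null. They were wild type, here meaning the unmodified line, received no treatment and were fixed with formaldehyde. The series holds 3 samples, namely 1 library immunoprecipitated with a ZBTB11 antibody (Bethyl, A303-240A), 1 with IgG as the negative control (CST, 2729S in the labels, while the methods of the study name another supplier), and 1 Input library without antibody, which was not analysed here. With 1 library per antibody, none of the values below has a replicate check, and all comparisons describe these libraries and this cell line only.

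The nuclear pore complex is the channel through which proteins and RNA pass between nucleus and cytoplasm. A scaffold of outer and inner rings, anchored by membrane proteins, surrounds a central channel of nucleoporins rich in phenylalanine and glycine repeats, to which transport receptors bind. Filaments on the cytoplasmic face take part in the release of exported mRNA, and a basket on the nuclear face contacts chromatin. Dividing cells must build new pores, so most of these genes are active in proliferating cells of all tissues.

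Across chromosomes 1 to 22, X and Y, 346891 peaks were listed for ZBTB11 and 26712 for IgG, the latter on 4 chromosomes. The depth behind a peak is given as the fragments that overlap its summit, a number recovered from the deposited fold enrichment and p-value. Most peaks in both lists were low. The median was 5 fragments for ZBTB11 over a genome-wide background of 1.35, and 6 for IgG over 1.55. Strong peaks are those with a p-value no larger than 1e-05 (−log10 p of 5 or more). Intervals are exact Poisson 95% intervals for fragment numbers and Wilson 95% intervals for shares, and they cover counting error only.

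To ask whether ZBTB11 occupied the promoters of nuclear pore genes, the strongest peaks were first compared with those of all protein-coding genes. A listed ZBTB11 peak lay within 3 kb of a start in all 33 genes, but also in 87.7% of protein-coding genes. Strong peaks were found at 24 of the 33 (72.7%, 55.8% to 84.9%), against 46.9% of protein-coding genes, and this background lay below the interval. Without the paralogues NUP62CL and NUP210L the share was 24 of 31 (77.4%, 60.2% to 88.6%). The median summit of the nuclear pore genes held 18 fragments, with quartiles of 8 and 63 and a range of 5 to 482. Among protein-coding genes the median was 9 fragments, with quartiles of 5 and 25. The median −log10 p was 12.6 for the nuclear pore genes and 4.54 for protein-coding genes, counting a gene without a peak as 0.

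The nuclear pore genes covered a wide range of occupancy. At the top, 4 genes stood above 400 fragments, namely NUP107, NUP54, SEC13 and NUP153, and AAAS followed at 242. No gene held at least 100 but fewer than 200 fragments. In the classes below, 8 genes held 40 to 99 fragments, with a −log10 p of 33.3 (NUP160) to 60.6 (NUP58). Another 11 held 10 to 39 fragments, with a −log10 p of 5.31 (NUP85) to 21.9 (TPR), so that all genes with at least 10 fragments were strong. The remaining 9 held 5 to 8 fragments, with a −log10 p of 2.43 (NUP210L) to 4.24 (NUP93). Summits of at least 400 fragments were found at 12.1% of the nuclear pore genes and 1.98% of protein-coding genes. Summits of at least 50 fragments were found at 11 of 33 (33.3%, 19.8% to 50.4%), against a background of 14.8%. When the 33 genes were put in order of fragments, the intervals of neighbours failed to overlap at 2 of the 32 steps, between NUP153 and AAAS and between AAAS and POM121. The order within the top 4, and the order among the 28 genes below AAAS from one gene to the next, is therefore not resolved by these counts.

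**Figure D1:**
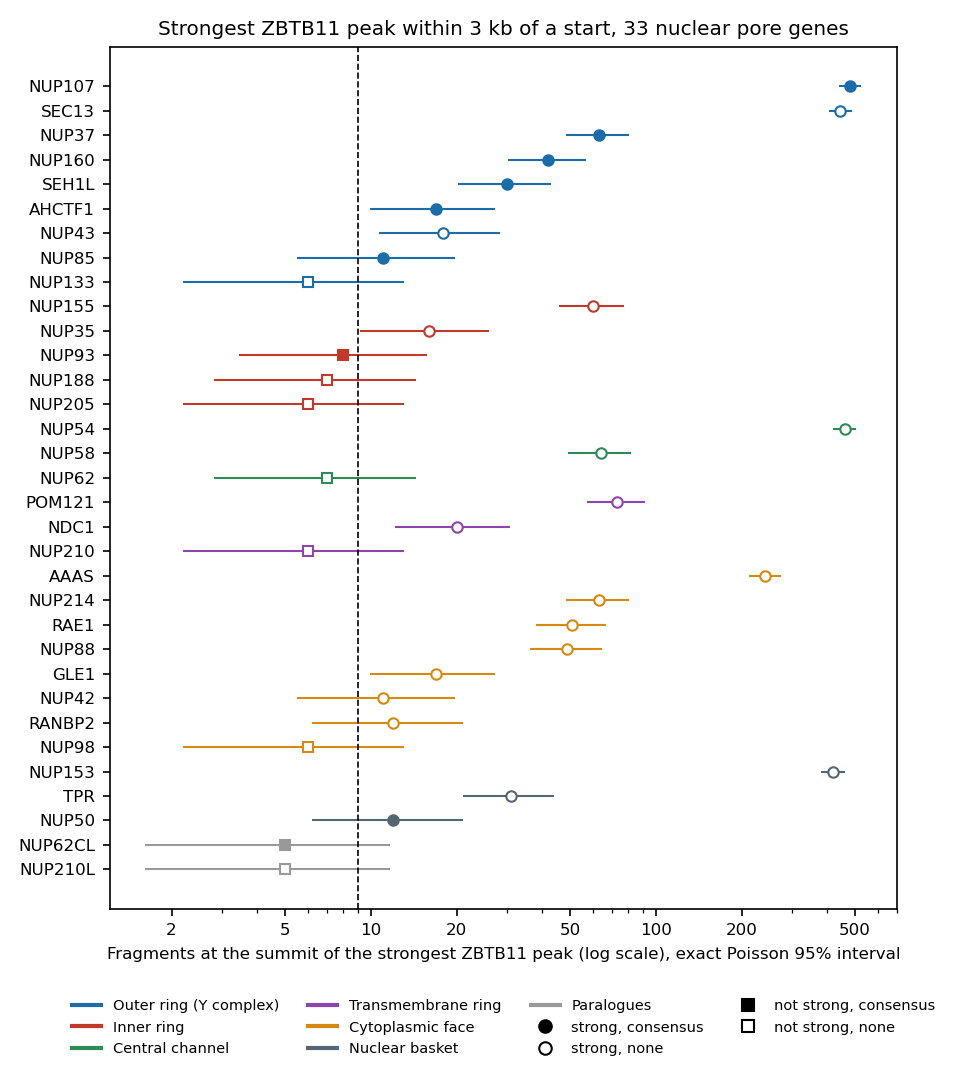
Fragments at the summit of the strongest ZBTB11 peak (x axis, log scale) for each of the 33 nuclear pore genes (y axis), with exact Poisson 95% intervals and colours for the sub-complex. Circles are strong peaks and squares are not, filled symbols hold the consensus within 50 bp of the summit, and the dashed line is the median of protein-coding genes, 9 fragments. The top 4 genes and AAAS stand apart from the rest.

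**Figure D2:**
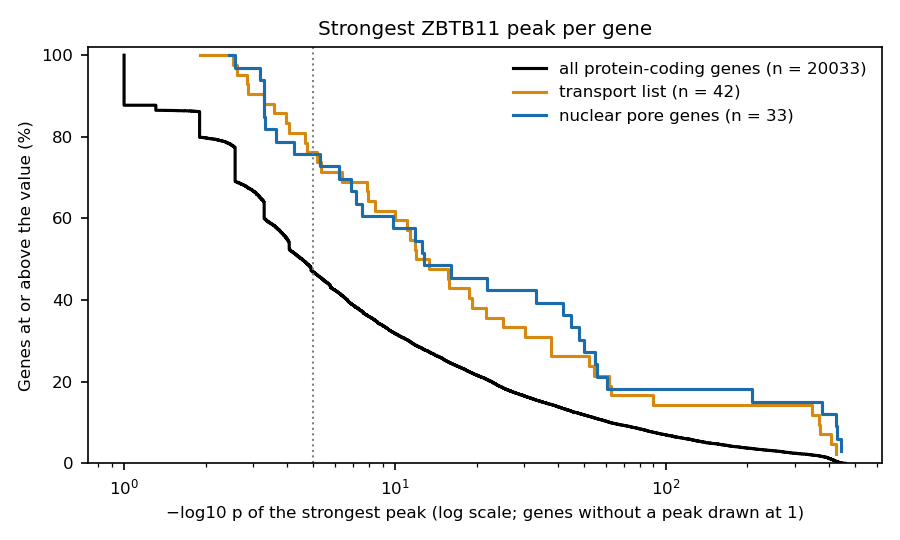
Share of genes (y axis, percent) whose strongest ZBTB11 peak has at least the −log10 p on the x axis (log scale), for the 33 nuclear pore genes, 42 nuclear transport genes and 20033 protein-coding genes. At the dotted line (−log10 p of 5) the curves stand at 72.7%, 73.8% and 46.9%.

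Next, the sequence under the summits was examined. The study names CCGGAAG, or CAGGAAG with A at the second base, as the consensus of ZBTB11, and both hold the GGAA core that ETS family factors also recognise. Either word was present within 50 bp of the summit in 9 of the 33 strongest peaks (27.3%, 15.1% to 44.2%) and in 1 of 66 windows of equal length 500 bp to either side (1.52%, 0.268% to 8.1%). The background over protein-coding genes with a peak was 15.8% at the summit and 4.11% in the flanks, and that summit share lies within the interval of the nuclear pore genes. Each of the 9 windows held 1 word, of which 7 were CCGGAAG and 2 were CAGGAAG, and 5 lay on the strand of the gene. The median distance from the summit to the centre of the word was 30 bp, with a range of 1 to 44 bp. The following stretches show, for each sub-complex with such a word, the gene with the strongest peak, to let the words be compared in their context. They are written 5′ to 3′ on the strand named, in hg38, with the consensus in capitals.
NUP107 (chr12:68686957-68686985, minus strand): agcccttcgacCCGGAAGcagtctgtccc
NUP93 (chr16:56730569-56730597, minus strand): cagggcacggtCAGGAAGgtaagcaggcg
NUP50 (chr22:45164166-45164194, plus strand): gcagcgcagcaCCGGAAGcggccgagcgc
NUP62CL (chrX:107205944-107205972, plus strand): ggacttggggcCCGGAAGccttgcctaca
Of the other words, those of NUP37 and NUP160 are shown because these genes had the next strongest peaks with a word within the outer ring, a choice made after their values were seen.
NUP37 (chr12:102120111-102120139, minus strand): cgccctccgacCCGGAAGcagagccacag
NUP160 (chr11:47848367-47848395, minus strand): ccgccccacccCCGGAAGtgacggcgacc
The 4 bases before the word and the 3 bases after it were identical between NUP107 and NUP37, more than in any other pair of the 7 CCGGAAG words. The word was present at peaks of very different height, since NUP107 stood at 482 fragments and NUP62CL, with its word 4 bp from the summit, at 5.

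Many of the strongest peaks had no such word in the window. Of the 11 nuclear pore genes with at least 50 fragments, only NUP107 and NUP37 held one (18.2%, 5.14% to 47.7%), against 40.5% of protein-coding genes at this height, a value within that interval. The strongest of those without it was NUP54, whose summit base is in capitals in the first line below. In NUP54 and SEC13 the nearest word lay just outside the window, 65 and 52 bp from the summit, and these words are shown in capitals in the other lines, chosen after their values were seen.
NUP54 summit (chr4:76148425-76148453, minus strand): gcggtttcccggccGgactgagaagggga
NUP54 word (chr4:76148490-76148518, plus strand): agcctaagaggCCGGAAGgcgccaagggc
SEC13 word (chr3:10321108-10321136, minus strand): cgggcccggcgCCGGAAGtgagctgttcc
In NUP153 and AAAS the nearest words were CAGGAAG at 148 and 140 bp from the summit. The count of nuclear pore genes with a word therefore depended on the window. It was 3 within 25 bp, 9 within 50 bp, 17 (51.5%) within 100 bp and 24 within the whole peak, against 7.93%, 15.8%, 25.5% and 43.1% of protein-coding genes with a peak. The earlier statement that the background lay within the interval also holds within 25 bp, but not within 100 bp or for the whole peak. In 8 genes the nearest word lay 51 to 100 bp away, and 9 genes had neither word anywhere in the peak.

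**Figure D3:**
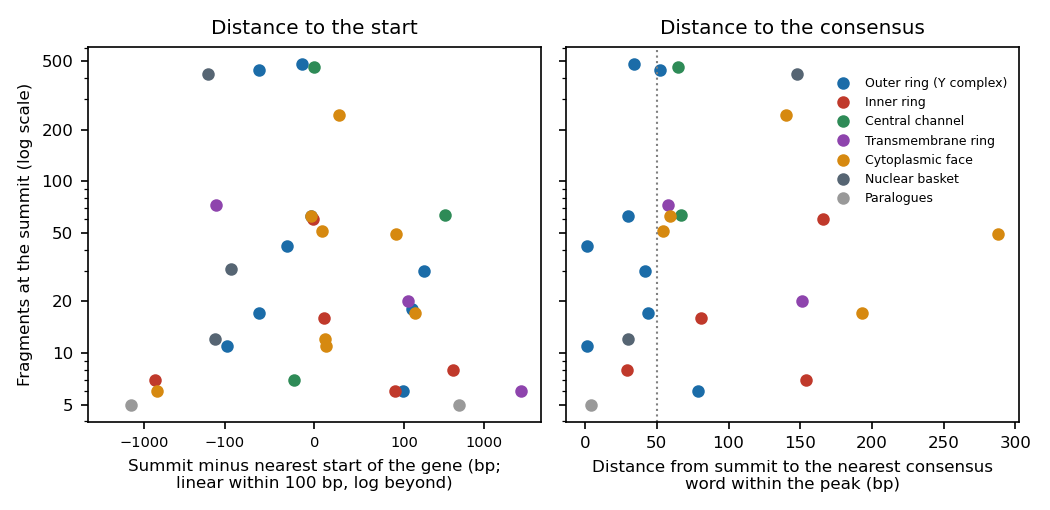
Left, fragments at the summit (y axis, log scale) against the distance of the summit from the nearest start of the same gene (x axis, bp, linear within 100 bp and log beyond) for the 33 nuclear pore genes. Right, the same fragments against the distance to the nearest CCGGAAG or CAGGAAG in the peak for the 24 genes with one, where the dotted line marks 50 bp and 9 genes lie inside it.

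The outer ring, or Y complex, is the scaffold that coats both faces of the pore. Of the 9 genes placed in it here, 8 had a strong peak (88.9%, 56.5% to 98%). NUP98 was counted on the cytoplasmic face only. NUP107, the gene of a Y complex stem protein, had the highest peak of all 33 genes, with 482 fragments (440 to 527) over a background of 22.8 and a −log10 p of 442. It lay at chr12:68686520-68687398, ranked 23 in the whole ZBTB11 list, and its summit stood 14 bp upstream of the nearest NUP107 start. The lncRNA NUP107-DT starts under the same peak on the opposite strand, 75 bp away, so the peak belongs to both genes. SEC13, which also serves in the COPII coat of secretory vesicles, had 444 fragments (404 to 487) and a −log10 p of 425 at chr3:10320743-10321583, with no other gene starting under the peak. Its summit lay 62 bp upstream of the start, in a window of 79.2% GC.

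The remaining Y complex genes formed a graded series. NUP37, a peripheral subunit, had 63 fragments (48.4 to 80.6) at chr12:102119684-102120545, in a promoter shared with the divergent coding gene PARPBP, whose start lies 92 bp away. NUP160, another subunit of the complex, had 42 fragments (30.3 to 56.8) at chr11:47848013-47848898, and its consensus word was centred 1 bp from the summit. SEH1L, shared with the GATOR complex of amino acid sensing, had 30 fragments (20.2 to 42.8) at chr18:12946901-12948677. The NUP37 interval lay above that of SEH1L, whereas NUP160 overlapped both. AHCTF1, also called ELYS, which brings the Y complex to chromatin after mitosis, had 17 fragments (9.9 to 27.2) at chr1:246931686-246932400. NUP85, in the short arm of the complex, had 11 fragments (5.49 to 19.7) at chr17:75205377-75205741, with CAGGAAG centred 1 bp from the summit. Of these 5 genes all held the consensus in the window, as did NUP107, so that the outer ring held 6 of the 9 windows with a word. The share of outer ring genes with a word was 66.7% (35.4% to 87.9%). The background was 15.8% of protein-coding genes with a peak and 25.2% of those with a strong peak. The outer ring share depended on the window. Within 25 bp only NUP160 and NUP85 held a word, and within 100 bp SEC13 and NUP133 held one too.

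For the last outer ring genes the assignment was less direct. NUP43, a peripheral subunit, had 18 fragments (10.7 to 28.4) at chr6:149749379-149749698, but this summit lay 3009 bp upstream of the canonical NUP43 start, in an exon of a non-coding transcript of the gene. The divergent coding gene PCMT1, a protein repair methyltransferase, starts under this peak, 30 bp from the non-coding start. The peak over the canonical NUP43 start held 11 fragments with a −log10 p of 3.64 and was not strong, so the strong call of NUP43 rested on the distal peak. Of the 71 words of 31 bases in the NUP43 window, 54 had a second exact copy in the genome, among them the word at the summit. NUP133, a stem subunit that binds curved membrane, was the outer ring gene without a strong peak, with 6 fragments (2.2 to 13.1) and a −log10 p of 3.29.

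In the inner ring, which lines the pore next to the membrane, 2 of 5 genes had a strong peak (40%, 11.8% to 76.9%), and the median summit held 8 fragments, near the 9 of protein-coding genes. NUP155, which contacts the membrane, had 60 fragments (45.8 to 77.2) at chr5:37370619-37371496, with the summit 2 bp from a start. NUP35, a small membrane-binding subunit, had 16 fragments (9.15 to 26) at chr2:183124206-183125004. The others were low. NUP93, the linker that holds the ring together, had 8 fragments (3.45 to 15.8), 405 bp inside the gene. The large scaffold proteins NUP188 and NUP205 had 7 (2.81 to 14.4) and 6 (2.2 to 13.1) fragments, and both of these peaks lay at internal starts, 38164 and 48322 bp downstream of the canonical ones. At the canonical starts themselves, NUP188 had a peak of 8 fragments and NUP205 one of 6. The word at the NUP188 summit had 1961 exact copies in the genome. The NUP155 interval lay wholly above those of the other 4 inner ring genes.

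The central channel, built from the FG nucleoporins NUP54, NUP58 and NUP62 as one coiled-coil assembly, showed unequal occupancy of its 3 genes. NUP54 had 461 fragments (420 to 505) and a −log10 p of 429 at chr4:76147986-76148845, with the summit 0 bp from an annotated start and the lncRNA ENSG00000286074 starting 122 bp away on the other strand. NUP58 had 64 fragments (49.3 to 81.7) at chr13:25301542-25302282, 322 bp downstream of its nearest start. NUP62 had 7 fragments (2.81 to 14.4) and a −log10 p of 3.32 at chr19:49928900-49930239, under which the coding genes ATF5, a stress-responsive transcription factor, and IL4I1, an amino acid oxidase, start as well. The 3 intervals did not overlap, and the genes of this one assembly thus stood at 3 levels of occupancy.

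Among the membrane anchors, 2 of 3 genes had a strong peak. POM121 had 73 fragments (57.2 to 91.8) at chr7:72878912-72879959, but 130 bp from a start that lies 45876 bp upstream of the canonical one, where the strongest peak held 10 fragments and a −log10 p of 4.29. POM121 was thus strong only through this distal start. In the POM121 window 9 of the 71 words of 31 bases had a second exact copy, but not the word at the summit. NDC1 had 20 fragments (12.2 to 30.9) at chr1:53837362-53838700, 114 bp inside the gene. NUP210 had 6 fragments (2.2 to 13.1) in an intron, 2883 bp from the nearest start. Another NUP210 peak, of 5 fragments and a −log10 p of 2.57, had its summit 37 bp from a start.

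On the cytoplasmic face, 7 of 8 genes had a strong peak (87.5%, 52.9% to 97.8%), and none of the 8 windows held the consensus (0 to 32.4%), an interval that includes the background of 15.8%. AAAS, the gene of ALADIN, which is mutated in triple A syndrome, led with 242 fragments (212 to 274) and a −log10 p of 208 at chr12:53321135-53321921, 27 bp downstream of a start. It was also the only one of the 33 genes with a second strong peak within 3 kb, of 45 fragments and a −log10 p of 11.8. NUP214 and NUP88, which together hold the mRNA export helicase at the pore, had 63 (48.4 to 80.6) and 49 (36.3 to 64.8) fragments, with overlapping intervals. The NUP214 summit lay 4 bp upstream of a start at chr9:131125289-131126071. The NUP88 peak at chr17:5419116-5420235 also covers the start of RPAIN, which carries the replication protein RPA into the nucleus, 80 bp away on the opposite strand.

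The mRNA export factor RAE1 had 51 fragments (38 to 67.1) at chr20:57351004-57351664, 8 bp from a start, while its partner NUP98 had 6 (2.2 to 13.1), 90324 bp downstream of the canonical start. At the canonical NUP98 start the strongest peak likewise held 6 fragments. GLE1, the activator of the export helicase, had 17 fragments (9.9 to 27.2) at chr9:128504540-128505230, and its partner NUP42 had 11 (5.49 to 19.7) at chr7:23181976-23183014. RANBP2, a SUMO ligase at the filament tips, had 12 fragments (6.2 to 21) at chr2:108719410-108720130. The intervals of these 3 genes overlapped.

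All 3 genes of the nuclear basket had a strong peak. NUP153, which docks the basket to the pore, had 419 fragments (380 to 461) and a −log10 p of 377 at chr6:17706454-17707514, 164 bp upstream of its start. TPR, the main filament of the basket, had 31 (21.1 to 44) at chr1:186375118-186376182, a peak that also covers the start of the divergent coding gene ODR4. NUP50, which helps to release import cargo, had 12 (6.2 to 21) at chr22:45163268-45164493, under which the lncRNA NUP50-DT starts 471 bp away. The 3 intervals did not overlap, although those of TPR and NUP50 nearly met. In the NUP50 window 23 of the 71 words of 31 bases had a second exact copy, but not the word at the summit.

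The paralogues had the lowest values, within counting error of the next genes. NUP62CL on chromosome X and NUP210L on chromosome 1, the latter known mainly from the male germ line, had 5 fragments each (1.62 to 11.7). Their −log10 p was 2.57 and 2.43, and the word at the NUP210L summit had 4 exact copies in the genome. Their pore counterparts NUP62 and NUP210 had 7 and 6 fragments, with intervals that overlap those of the paralogues.

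Set side by side, strong peaks were found in 8 of 9 outer ring, 7 of 8 cytoplasmic and 3 of 3 basket genes, in 2 of 3 genes each of the channel and the membrane ring, in 2 of 5 inner ring genes and in 0 of 2 paralogues. The intervals of these 7 groups all overlapped each other, and those of the inner ring, channel, membrane ring, basket and paralogues include the 46.9% of protein-coding genes. The outer ring (56.5% to 98%) and the cytoplasmic face (52.9% to 97.8%) lay above that value. This did not hold with at least 50 fragments in place of the p-value. The outer ring then had 3 of 9 (33.3%, 12.1% to 64.6%) and the cytoplasmic face 3 of 8 (37.5%, 13.7% to 69.4%), and both intervals include the 14.8% of protein-coding genes. The other counts were 1 in the inner ring, 2 in the channel, 1 in the membrane ring and 1 in the basket.

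**Figure D4:**
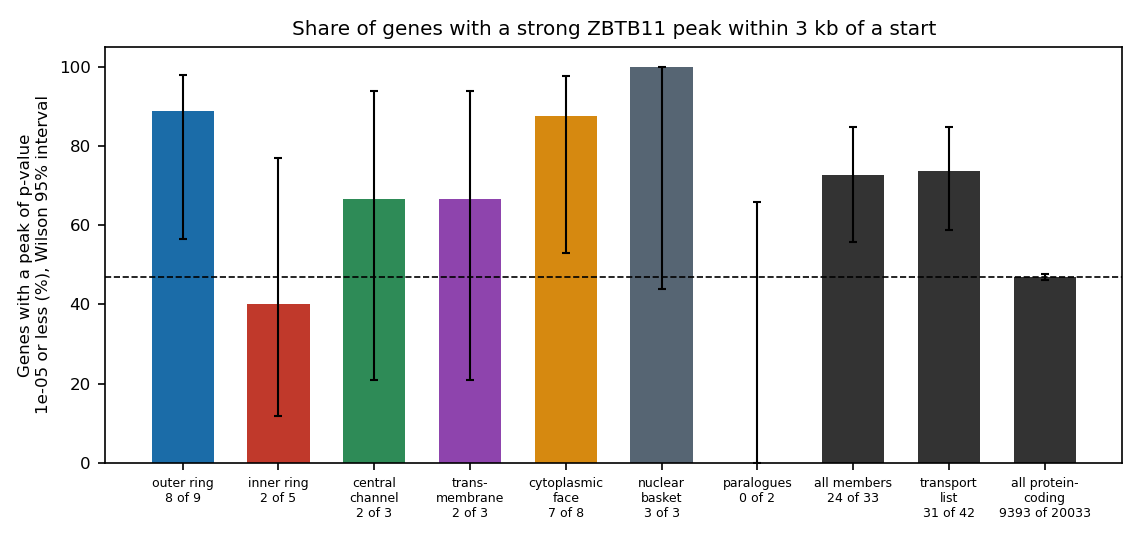
Share of genes with a strong ZBTB11 peak within 3 kb of a start (y axis, percent) by sub-complex, for all 33 nuclear pore genes, the transport list and all protein-coding genes, with Wilson 95% intervals and counts under the bars. The dashed line is the 46.9% of protein-coding genes, which the intervals of the outer ring, the cytoplasmic face, all 33 genes and the transport list do not include.

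Strong peaks of these genes lay at annotated starts, although every peak had been picked for lying within 3 kb of one. No values for all protein-coding genes stand beside the positions, widths and GC contents that follow. All 24 strong peaks covered an annotated start of their gene, and 23 had their summit within 300 bp of one. Of the 9 others, 4 covered a start. Among all 33 summits, 19 lay within 100 bp of a start, and NUP210 and NUP210L lay more than 1 kb from any. The annotation put 9 summits in a UTR exon, all 9 of them strong, 4 in a coding exon, 1 in a non-coding exon, 10 in an intron and 9 outside the gene. Of the intronic summits, 4 were strong. Strong peaks had a median width of 861 bp and the others 422 bp. The summit window had a GC content under 50% in 1 of the 24 strong peaks, that of NUP35, and in 4 of the 9 others, namely NUP188, NUP205, NUP210 and NUP98. Within 3 kb of their starts the 33 genes had 124 ZBTB11 peaks in all, 1 to 11 per gene with a median of 3. The median per protein-coding gene was 2. Peaks near any annotated start were counted, and the number of starts per gene was not taken into account. The 91 peaks that were not the strongest had a median of 5 fragments, the same as the whole list.

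Because a peak between divergent starts belongs to both genes, opposite-strand starts of other genes within 1 kb were counted. They were found at 13 of the 33 genes (39.4%, 24.7% to 56.3%), and at 31.8% of protein-coding genes with a peak, which lies within that interval. In 6 of the 13 the nearest partner was protein-coding. Among protein-coding genes with a peak, those at divergent promoters were strong in 74.8% of cases and the others in 43.5%. Among the nuclear pore genes the shares were 9 of 13 (69.2%, 42.4% to 87.3%) and 15 of 20 (75%, 53.1% to 88.8%). The 20 genes without a divergent start lay above the matching background, whereas the 13 with one did not differ from theirs beyond counting error.

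The promoters were then read from RefSeq (GRCh38.p14), as 300 bases from 250 before to 50 after the start, for the 30 nuclear pore genes that matched. Promoters were called CpG-rich at a GC content of at least 50% and an observed over expected CpG ratio of at least 0.6. By this measure 29 of 30 promoters (96.7%) were CpG-rich, all but that of NUP210L, against 63.4% of 15843 RefSeq promoters of protein-coding genes. Strong ZBTB11 peaks were found at 67% (66% to 67.9%) of all genes with a CpG-rich promoter and a peak, and at 21 of 29 such nuclear pore genes (72.4%, 54.3% to 85.3%). Within this class the difference from the background was thus smaller than the counting error. The part of CpG content in the higher share among nuclear pore genes was not tested further.

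Sequence elements were searched in the same promoters on both strands, each word counted by itself. None of the words contains another. CCGGAAG was present in 12 of 30 nuclear pore promoters (40%, 24.6% to 57.7%), in 14.2% of all RefSeq promoters and in 20% of the CpG-rich ones, both below the interval. These were NUP107, NUP160, NUP214, NUP35, NUP37, NUP50, NUP54, NUP58, NUP88, POM121, SEC13 and SEH1L. CAGGAAG was in 6 of 30 (20%, 9.51% to 37.3%), against 12.6% of all promoters. GGGCGG, the box bound by SP1, was in 13 of 30 (43.3%, 27.4% to 60.8%). This was fewer than the 79.4% of CpG-rich promoters, while the 58.5% of all promoters lay within the interval. ATGGCGGC, a word of YY1, was in 5 of 30 (16.7%, 7.34% to 33.6%), namely NDC1, NUP160, NUP188, NUP88 and RAE1, against 6.67% of CpG-rich promoters. For GCATGCGC, a word of NRF1, the count was 3 (10%, 3.46% to 25.6%) in NUP107, NUP50 and NUP62, against 6.1%, and for CCAAT, the box bound by NF-Y, it was 13 (43.3%, 27.4% to 60.8%) against 35.2%. TCGCGAGA and ACTACAAT were in 0 of 30, and in 1.75% and 0.694% of all promoters. These matches describe letters in a window and do not show binding of a factor.

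The IgG list served as a control on chromosomes 1, 10 and 21, where 5 nuclear pore genes lie, all on chromosome 1. Each of the 5 had an IgG peak within 3 kb of a start, as did 68.7% of protein-coding genes on these chromosomes, and none of these IgG peaks was strong or had a q-value of 0.05 or less. TPR had 31 fragments with ZBTB11 (21.1 to 44) and 6 with IgG (2.2 to 13.1), at sites 51424 bp apart. AHCTF1 had 17 with ZBTB11 (9.9 to 27.2) and 4 with IgG (1.09 to 10.2), at sites 34925 bp apart. NDC1 had 20 with ZBTB11 (12.2 to 30.9) and 9 with IgG (4.12 to 17.1), 1191 bp apart. The intervals of both libraries did not overlap at TPR but did at AHCTF1 and NDC1. These intervals compare different sites, and no listed IgG peak overlapped the strongest ZBTB11 peak of AHCTF1 or NDC1.

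For the genes with weak peaks the libraries held similar fragment numbers. NUP133 had 6 fragments with ZBTB11 and 4 with IgG, at overlapping peaks with summits 29 bp apart. NUP210L had 5 and 6, at sites 2378 bp apart. The TPR peak also overlapped an IgG peak of 6 fragments and a −log10 p of 2.95, with summits 613 bp apart. Strong IgG peaks were found at 1.99% of the 3011 protein-coding genes of these chromosomes and strong ZBTB11 peaks at 44.9%, while the nuclear pore genes had 0 and 3 of 5. For the 28 nuclear pore genes on other chromosomes, among them the 5 highest, the IgG list gave no control.

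**Figure D5:**
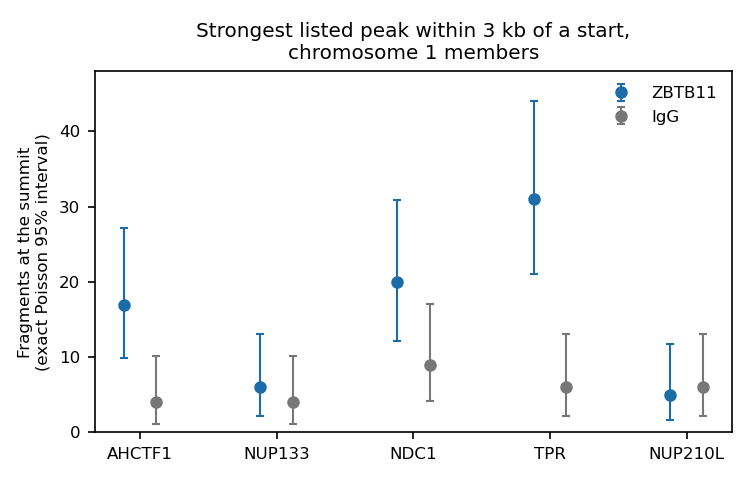
Fragments at the summit (y axis) of the strongest ZBTB11 and the strongest IgG peak within 3 kb of a start for the 5 nuclear pore genes on chromosome 1 (x axis), with exact Poisson 95% intervals. ZBTB11 stands at 17, 20 and 31 fragments at AHCTF1, NDC1 and TPR, and IgG at 4, 9 and 6. The intervals of both libraries are apart at TPR and overlap at the other 4 genes. The 2 peaks compared lie at the same site for NUP133 only.

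Finally, the genes of nuclear transport that work with the pore were listed, 42 receptors, Ran cycle proteins, mRNA export factors and SUMO enzymes of the pore. All 42 had a peak, and 31 of them a strong one (73.8%, 58.9% to 84.7%), against the 46.9% of protein-coding genes, with a median summit of 19.5 fragments. The share was near that of the pore genes themselves, and the difference between both lists lay within the intervals. By p-value, the strongest were IPO4, an importin for histones and ribosomal proteins, with 442 fragments (402 to 485), and NUTF2, which carries Ran into the nucleus, with 443 (403 to 486). NXT2, a cofactor of mRNA export, had 393 (355 to 434), TNPO3, the importin of splicing factors, 433 (393 to 476), and SENP1, a SUMO protease at the pore, 452 (411 to 496), and the intervals of these 5 genes overlapped each other.

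For 5 further genes of the transport list, named whatever their values, the heights differed. KPNB1, the main import receptor, had 71 fragments (55.5 to 89.6) and NXF1, the main mRNA export receptor, had 46 (33.7 to 61.4). XPO1, the main export receptor for proteins, had 11 (5.49 to 19.7) and a −log10 p of 5.17, just inside the limit. RCC1, the exchange factor of Ran, had 10 (4.8 to 18.4) and a −log10 p of 4.67, just outside it, and RAN itself had 6 (2.2 to 13.1) and 2.62. The consensus lay within 50 bp of the summit in 9 of the 42 (21.4%, 11.7% to 35.9%). That interval includes the 15.8% of protein-coding genes with a peak. A divergent start within 1 kb was found at 21 (50%, 35.5% to 64.5%), a share above the 31.8% of protein-coding genes with a peak.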

How the data were processed

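ChIP-seq peak lists of 1 ZBTB11 and 1 IgG library were used, grouped by the sample titles. By the methods of the study, the authors aligned reads to hg38 with BWA, called peaks with MACS for each antibody separately at a p-value below 0.05, and took 3 kb around starts as promoters. The release of MACS is not certain from the layout of the files. The deposited fold enrichment is the ratio of the summit to the local background, each with a pseudocount of 1. The p-value and q-value were deposited as −log10 p and −log10 q, and the deposited score (10 times the −log10 p) was not used. The fragments at the summit were solved from fold and p-value under a Poisson background, for 100% of the peaks, within 0.001 of the deposited −log10 p. The solver, the assignment and the word search were tested on simulated data.

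Only chromosomes 1 to 22, X and Y were used, which left out 1501 ZBTB11 and 1165 IgG peaks. Starts came from GENCODE release 44. A peak was near a start if its interval lay within 3 kb. Words were searched on both strands within 50 bp of the summit. Copies of 31-base words were exact matches in the genome, and copies with mismatches were not counted. The analysis was run in Python 3.11.15 with pandas 2.3.3, numpy 2.4.6, scipy 1.17.1, pysam 0.24.0 and matplotlib 3.10.9.

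With 1 library per antibody no test was made. The genes, sub-complexes and transport list were chosen with earlier results of these data known. All nuclear pore genes could be named. Of the transport list, the 5 with the smallest p-values and RAN, RCC1, KPNB1, XPO1 and NXF1 were named, and other genes if they start under a strongest peak or are the divergent partner. Sequences were shown for the strongest gene of each sub-complex with the consensus and the strongest without it. The CpG-rich limits were chosen after seeing the data. Alternatives covered the distance to the start, canonical starts only, other limits on peaks, other windows around the summit, and genes left out.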

Additional observations from a re-analysis of the deposited data

How the results depend on the processing

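For 15 results, 69 alternatives were computed, 3 of them chosen after seeing the data. In 54 the value stayed within the spread allowed (a count within 1.5 times the reported one), and 15 moved. No paired analysis was possible because there was 1 library per antibody, and for the same reason no replicate could be left out. With at least 50 fragments in place of a p-value of 1e-05 or less, strong nuclear pore genes fell from 24 to 11, outer ring genes from 8 to 3, inner ring genes from 2 to 1, membrane ring genes from 2 to 1, cytoplasmic face genes from 7 to 3, basket genes from 3 to 1 and transport genes from 31 to 12. With canonical starts only, the membrane ring kept 1, since POM121 was no longer strong. The count of nuclear pore genes with an IgG peak fell from 5 to 1 at a p-value of 1e-03 or less, to 0 with a q-value limit of 0.05, and to 2 for IgG peaks that overlap the strongest ZBTB11 peak. The consensus count went from 9 to 3 within 25 bp, 17 within 100 bp and 24 in the whole peak. The count of divergent promoters fell from 13 to 6 with protein-coding partners only. Strong nuclear pore genes numbered 23 to 25 under the other alternatives on the peak, start or members. The share of protein-coding genes moved as well, to 44.8% within 1 kb and 43.4% with canonical starts only. At a q-value of 0.05 or less it was 55.3%, against 75.8% (59% to 87.2%) of nuclear pore genes, so the difference was smaller there. Peaks of fewer than 10 fragments are too shallow to be told from each other.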
